A study of Mus musculus with 11 samples.

Results

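The 10 genes described here encode cell surface proteins of the immunoglobulin and cadherin superfamilies that help retinal neurites find their layers. They comprised the sidekicks Sdk1 and Sdk2, the Down syndrome cell adhesion molecules Dscam and Dscaml1, the type II cadherins Cdh6, Cdh8, Cdh9 and Cdh10, and the contactins Cntn2 and Cntn5. They were listed by name, with no threshold on a measured value, and all 10 were found among the 47069 genes of the deposited tables and were high enough to be tested. Sidekicks and Dscams are homophilic proteins, so a cell that carries one adheres to, or is kept spaced from, others that carry the same one. Type II cadherins are calcium-dependent and mark particular bipolar and ganglion cell types, with Cdh8 and Cdh9 known for opposite targeting of bipolar axons to OFF and ON layers. Contactins are tethered to the membrane by a lipid anchor and act with partners of the L1 and contactin-associated families.

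RNA was sequenced from retinas of C57BL/6 mice at postnatal days 4 and 8 (P4 and P8), in a group labelled wild type and in a Brn3b-Kir2.1 group. The Brn3b-Kir2.1 mice carried human Kir2.1, an inward rectifier potassium channel, fused to eYFP behind a CAG promoter and a floxed STOP cassette, together with Brn3b-cre, which is active in ganglion cells. P4 had 2 wild-type and 3 Kir2.1 libraries, and P8 had 3 for either genotype. The labels differ among themselves: the extraction protocol names Brn3b-cre mice as the other genotype and P11 as the later age, and the source field names ganglion cells where the protocol describes dissociated whole retina with no sorting. The sex of the animals and whether a library came from 1 animal or a pool are not stated, so p-values measure the spread between these libraries.

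Gene counts per library ran from 9362215 to 12478838, and the lowest count of any of the 10 genes in any library was 10 (Cdh9 in wild-type P4 replicate 1). Markers of rods, bipolar, amacrine and dividing cells were present in every library beside those of ganglion cells, as in whole retina. In such bulk samples, fewer cells of a type and less RNA per cell cannot be told apart. Wild-type P4 replicate 2 stood apart from the other P4 libraries. Its Grm6, a receptor of ON bipolar cells, was at 57.4 CPM (the count scaled to the size of the library) against 0 to 0.461 CPM in the other 4, and its Mki67, a marker of dividing cells, at 572 CPM against 1260 to 1670 CPM. The wild-type P8 libraries also differed, with the 9 rod markers summing to 607, 2470 and 5710 CPM in replicates 1, 2 and 3 against 5110 to 5510 CPM in Kir2.1 P8. Values by library below are in the order of the replicate numbers. Kir2.1 P8 replicate 2 had counts in 31325 genes, against 22609 to 24591 in the other 10 libraries.

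The genes lie on 7 chromosomes (GENCODE M21 on GRCm38, the assembly also called mm10, which the submitters' processing notes name). Sdk1 (ENSMUSG00000039683) spans 974.1 kb of chromosome 5 (141241490 to 142215586, plus strand), and Sdk2 (ENSMUSG00000041592) 290.7 kb of chromosome 11 (113776374 to 114067046, minus strand). Dscam (ENSMUSG00000050272) is on chromosome 16 (96590840 to 97170752, minus strand) and Dscaml1 (ENSMUSG00000032087) on chromosome 9 (45426628 to 45753712, plus strand). The cadherins Cdh6 (ENSMUSG00000039385; 13028701 to 13173675, minus strand), Cdh9 (ENSMUSG00000025370; 16728756 to 16857094, plus strand) and Cdh10 (ENSMUSG00000022321; 18818947 to 19014236, plus strand) are all on chromosome 15. Cdh8 (ENSMUSG00000036510) is on chromosome 8 (99024471 to 99416471, minus strand). Cntn2 (ENSMUSG00000053024) is the shortest of the genes at 33.8 kb, on chromosome 1 (132509427 to 132543256, minus strand), and Cntn5 (ENSMUSG00000039488) the longest at 1243.9 kb, on chromosome 9 (9660891 to 10904775, minus strand). All are protein-coding. Antisense or other transcripts overlap 3.1% of the exonic bases of Dscam, 6.33% of those of Cdh9, 6.4% of those of Cntn5 and under 1% of those of the other 7, and the strand setting of the counting is not given in the sources used here.

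Promoter sequence was available for 9 of the 10 genes. The sidekick pair and Cdh8 are shown because, as described below, the sidekicks were called in opposite directions with age in Kir2.1, and Cdh8 rose in both genotypes. Each line gives 200 bases, from 250 to 51 before the RefSeq transcript start (GRCm38.p6), read along the gene's strand, with CpG dinucleotides in capitals. They are chr5:141241284-141241483 (plus) for Sdk1, chr11:114067080-114067279 (minus) for Sdk2 and chr8:99416522-99416721 (minus) for Cdh8.
Sdk1: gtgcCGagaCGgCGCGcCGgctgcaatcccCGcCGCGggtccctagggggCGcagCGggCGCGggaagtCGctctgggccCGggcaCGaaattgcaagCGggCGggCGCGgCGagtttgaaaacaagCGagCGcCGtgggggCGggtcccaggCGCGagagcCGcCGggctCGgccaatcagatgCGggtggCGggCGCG
Sdk2: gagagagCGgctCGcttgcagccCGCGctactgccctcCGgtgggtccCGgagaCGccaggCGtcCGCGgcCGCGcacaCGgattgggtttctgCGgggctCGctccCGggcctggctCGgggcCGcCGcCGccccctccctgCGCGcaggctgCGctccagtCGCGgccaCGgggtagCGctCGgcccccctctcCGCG
Cdh8: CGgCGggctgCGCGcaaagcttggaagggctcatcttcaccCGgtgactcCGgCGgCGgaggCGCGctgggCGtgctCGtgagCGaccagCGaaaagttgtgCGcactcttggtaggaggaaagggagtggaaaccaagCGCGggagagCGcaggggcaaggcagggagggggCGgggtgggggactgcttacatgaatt
The window of Sdk1 holds 33 CpG and that of Sdk2 30, against a median of 4 over the 32851 promoter windows of the same length. Cdh8 holds 19, Dscam 13, Cdh6, Cdh9 and Cntn2 6 each, Cdh10 1, and Cntn5 17 and 24 in windows at its 2 starts. Fewer CpG than in Sdk1 were found in 98.9% of all windows, and fewer than in Cdh10 in 10.9%. The letters TAATCC (bound by OTX and CRX factors), TAATTA (a homeodomain core) and CAGCTG (an E-box), searched on both strands, were absent from the windows shown, and of the other genes Cdh9 had 1 CAGCTG. These letters occur in 5.22%, 4.19% and 10.3% of all such windows.

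The first question was how these genes change between P4 and P8, in the days when bipolar cells form and neurites settle into layers. In Kir2.1 retinas 6 of the 10 genes changed: Sdk1, Dscaml1 and Cdh8 rose, and Sdk2, Dscam and Cntn2 fell (edgeR adjusted p under 0.05, called in 16.7% of the 18188 genes tested, 7.93% higher and 8.73% lower). In wild type 2 of the 10 changed, with Cdh8 higher and Cntn2 lower at P8 (4.39% of all genes, 0.803% higher and 3.58% lower). In each of 2 families one paralog was therefore called higher and the other lower in Kir2.1. The 10 genes had a median log2 fold change of 0.0903 for wild type and 0.287 for Kir2.1, beside 0.0265 and 0.00464 over all genes. When each library was left out, the median ran from -0.101 to 0.316 in wild type and from 0.232 to 0.462 in Kir2.1. The ages did not overlap for 6 genes in wild type, 3 of them higher and 3 lower (31.1% of all genes, 14.2% higher and 16.9% lower). In Kir2.1 they did not overlap for 6 genes either, 4 higher and 2 lower (38.1%, 19.4% and 18.7%). At an unadjusted p under 0.05 wild type had 5 of the 10, against 19.6% of all genes. The calls of Dscaml1 and Cdh8 in Kir2.1 held in all 6 fits that left out 1 of its libraries. Those of the other 4 each failed in 4 to 6 of these fits, where 2 to 4 of the 10 genes remained called.

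**Figure D1:**
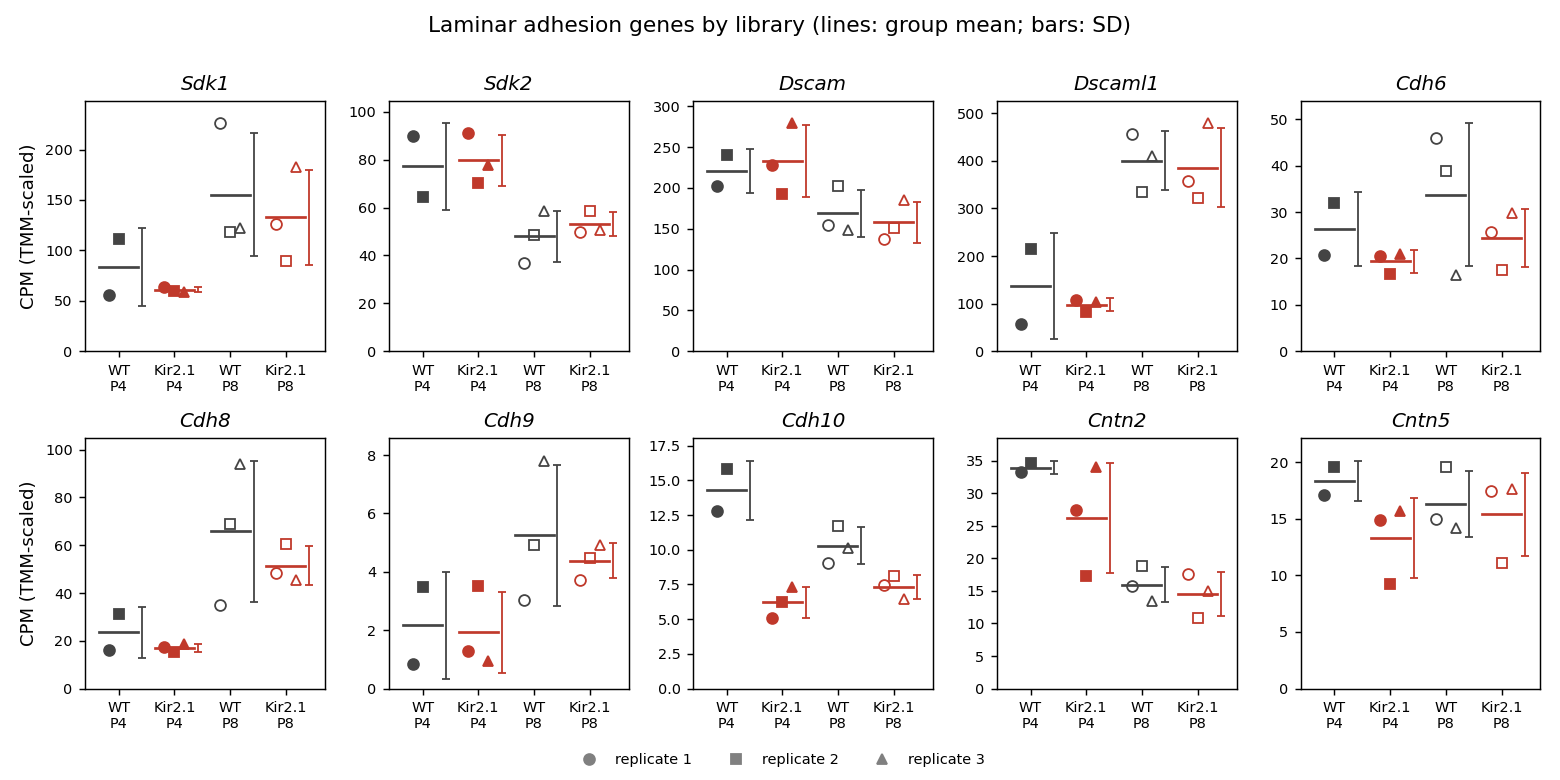
CPM of each gene in every library (y axes start at 0), by genotype (WT, wild type) and age, with marker shape for the replicate number, a line for the group mean and a bar for the SD. Dscaml1 and Cdh8 sit higher at P8 and Cntn2 lower, and Cdh10 is lower in Kir2.1 than in wild type at both ages.

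Sdk1, which holds together the neurites of particular amacrine and ganglion cells, was at 56 and 111 CPM in the 1st and 2nd wild-type P4 libraries, and the 3 Kir2.1 P4 libraries had 63.9, 60.2 and 59.1 CPM. By P8 the wild-type libraries had 226, 118 and 122 CPM and the Kir2.1 libraries 126, 89.6 and 183 CPM. The ages did not overlap within either genotype, though wild-type P4 replicate 2 came close to the lowest wild-type P8 library. Sdk1 rose 2.18-fold in Kir2.1 (log2 fold change 1.12 ± 0.32 (SE), edgeR adjusted p = 0.0306). In wild type the log2 fold change was 0.89 ± 0.36 (edgeR adjusted p = 0.19). It ranged from 0.48 without wild-type P4 replicate 1 (edgeR adjusted p = 0.885) to 1.47 without wild-type P4 replicate 2 (edgeR adjusted p = 0.0624), and was 0.50 without wild-type P8 replicate 1 (edgeR adjusted p = 0.411). With no filter on low counts edgeR called it (0.89, adjusted p = 9.23e-06, with 5.63% of genes called). The log2 fold change was nearly the same there, so the lower p did not come from a larger difference between the ages.

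Sdk2, the sidekick known for joining a type of amacrine cell to the ganglion cells it drives, went the other way. It was at 89.9 and 64.4 CPM in wild-type P4, and at 91.1, 70.1 and 77.9 CPM in Kir2.1 P4. Its P8 values were 37, 48.7 and 58.4 CPM for wild type and 49.9, 58.7 and 50.6 CPM for Kir2.1. All 6 P8 libraries lay below all 5 P4 libraries. Sdk2 fell 1.5-fold in Kir2.1 (log2 fold change -0.59 ± 0.18, edgeR adjusted p = 0.044). The wild-type log2 fold change of -0.68 ± 0.20 did not pass (edgeR adjusted p = 0.0802), and it passed without wild-type P4 replicate 2 (-0.90, edgeR adjusted p = 0.0351) or without wild-type P8 replicate 3 (-0.85, edgeR adjusted p = 0.0313). It was smaller without wild-type P4 replicate 1 (-0.42, edgeR adjusted p = 0.782) or without wild-type P8 replicate 1 (-0.54, edgeR adjusted p = 0.114). DESeq2 called it (-0.68, adjusted p = 0.0316, with 10.3% of genes called), as did edgeR with no filter on low counts (-0.68, adjusted p = 0.00374).

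Dscaml1, which spaces cells of the rod pathway, had the highest log2 fold change of the 10 in Kir2.1. It was at 57.5 and 215 CPM in wild-type P4 and at 107, 83 and 104 CPM in Kir2.1 P4, and by P8 the libraries had 457, 334 and 411 CPM (wild type) and 357, 322 and 479 CPM (Kir2.1). The lowest P8 library lay above the highest P4 library, which was wild-type P4 replicate 2. Dscaml1 rose 3.94-fold in Kir2.1 (log2 fold change 1.98 ± 0.36, edgeR adjusted p = 0.00323). The wild-type log2 fold change was 1.56 ± 0.41 (edgeR adjusted p = 0.0528) with all libraries and 2.81 (edgeR adjusted p = 0.000112) without wild-type P4 replicate 2. Leaving out the first P4 replicate instead gave 0.89 (edgeR adjusted p = 0.219), and the fit to wild-type libraries alone gave an edgeR adjusted p of 0.263. DESeq2 also called it in wild type (adjusted p = 0.00114, with 10.3% of genes called), as did voom (limma adjusted p = 0.0221, 5.3% of genes). With no filter on low counts edgeR called it too (adjusted p = 1.22e-19, 5.63% of genes). The log2 fold change there was nearly the same (1.55), so the lower p did not come from a larger difference between the ages.

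Dscam, which prevents clumping among amacrine and ganglion cells of 1 type, was at 202 and 240 CPM in wild-type P4, at 228, 192 and 279 CPM in Kir2.1 P4, at 155, 202 and 149 CPM in wild-type P8 and at 137, 151 and 185 CPM in Kir2.1 P8. The ages separated in Kir2.1 and met in wild type, where P8 replicate 2 and P4 replicate 1 were both at 202 CPM. Dscam fell 1.48-fold in Kir2.1 (log2 fold change -0.56 ± 0.17, edgeR adjusted p = 0.0405). In wild type the log2 fold change was -0.39 ± 0.19 (edgeR adjusted p = 0.282).

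Among the cadherins, Cdh8, a marker of OFF bipolar cells, was at 16 and 31.1 CPM in wild-type P4 and at 17.2, 15.2 and 18.7 CPM in Kir2.1 P4. By P8 the wild-type libraries had 34.9, 68.8 and 93.8 CPM and the Kir2.1 libraries 48.5, 60.7 and 45.3 CPM. All P8 libraries were above all P4 libraries, with wild-type P8 replicate 1 the lowest of them. Cdh8 rose 3.02-fold in Kir2.1 (log2 fold change 1.59 ± 0.32, edgeR adjusted p = 0.00585) and 2.8-fold in wild type (1.48 ± 0.37, edgeR adjusted p = 0.0409). The wild-type call failed without wild-type P4 replicate 1 (1.08, edgeR adjusted p = 0.528), P8 replicate 2 (edgeR adjusted p = 0.0992) or P8 replicate 3 (edgeR adjusted p = 0.0789), and in the fit to wild-type libraries alone (edgeR adjusted p = 0.249, with 0.666% of genes called).

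Cdh9, a marker of ON bipolar cells, had the fewest counts. It was at 0.855 and 3.47 CPM in wild-type P4, at 1.3, 3.53 and 0.962 CPM in Kir2.1 P4, at 3.02, 4.93 and 7.81 CPM in wild-type P8 and at 3.73, 4.49 and 4.91 CPM in Kir2.1 P8. Its log2 fold changes were 1.28 ± 0.66 in wild type (edgeR adjusted p = 0.317) and 1.16 ± 0.58 in Kir2.1 (edgeR adjusted p = 0.206), and neither passed. The wild-type value was 0.60 without P4 replicate 1 and 2.61 without P4 replicate 2. In Kir2.1 it was 0.84 without P4 replicate 3, and leaving out P4 replicate 2 gave 1.94. Cdh6, carried by direction-selective ganglion cells and starburst amacrine cells, ranged from 16.6 to 32 CPM at P4 and from 16.5 to 46 CPM at P8. It did not pass in wild type (0.36 ± 0.37, edgeR adjusted p = 0.662) or in Kir2.1 (0.34 ± 0.33, edgeR adjusted p = 0.554). When each library was left out, these values ran from 0.056 to 0.70 and from 0.17 to 0.53. Cdh10 likewise did not pass with age (-0.48 ± 0.24 in wild type, edgeR adjusted p = 0.304, and 0.23 ± 0.22 in Kir2.1, edgeR adjusted p = 0.545).

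The contactins differed from each other. Cntn2, also called TAG-1, an adhesion protein of growing axons, was at 33.2 and 34.7 CPM in wild-type P4 and at 27.4, 17.3 and 34.1 CPM in Kir2.1 P4. The P8 libraries had 15.7, 18.8 and 13.4 CPM for wild type and 17.6, 10.9 and 15 CPM for Kir2.1. The ages separated in wild type, and in Kir2.1 they overlapped through P4 replicate 2. Cntn2 fell 2.13-fold in wild type (log2 fold change -1.09 ± 0.27, edgeR adjusted p = 0.0439) and 1.81-fold in Kir2.1 (-0.85 ± 0.25, edgeR adjusted p = 0.0373). The wild-type call failed in all 5 fits without 1 of its libraries, with adjusted p from 0.06 to 0.3. Cntn5, carried by ON-OFF ganglion cells among others, ran from 9.21 to 19.6 CPM at P4 and from 11.1 to 19.6 CPM at P8. Its log2 fold change with age was -0.18 ± 0.27 in wild type (edgeR adjusted p = 0.785) and 0.21 ± 0.25 in Kir2.1 (edgeR adjusted p = 0.632). When each library was left out, these values ran from -0.33 to -0.074 and from 0.0020 to 0.40.

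**Figure D2:**
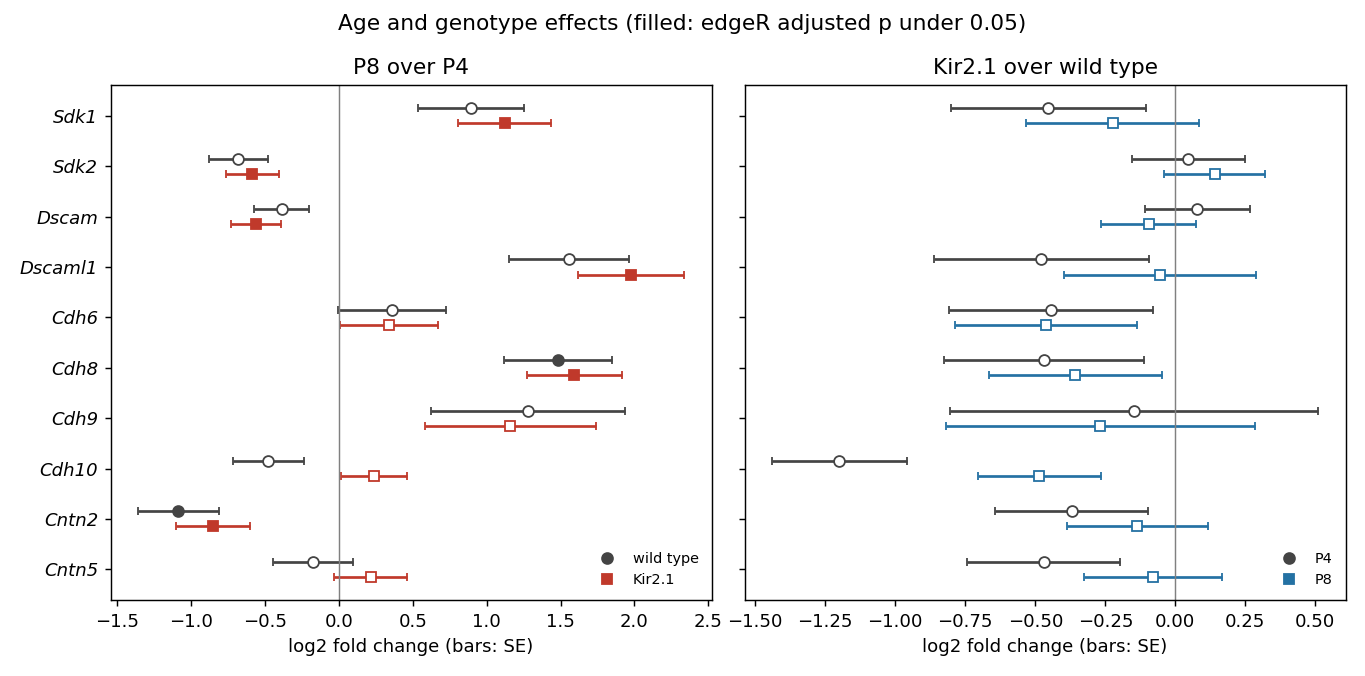
Log2 fold changes with their SE for age (left, P8 over P4) and genotype (right, Kir2.1 over wild type), with filled symbols for an edgeR adjusted p under 0.05. With age the paralogs Sdk1 and Sdk2, and Dscaml1 and Dscam, lie on opposite sides of 0, and no gene is filled for genotype.

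The make-up of the libraries moved with age too. The 8 markers of dividing cells summed to 915 to 2540 CPM in wild-type P4 and 2070 to 2620 CPM in Kir2.1 P4, and to 73.1 to 88.6 CPM and 90.7 to 126 CPM at P8. The 8 bipolar markers went from 222 to 486 CPM in wild type and 246 to 314 CPM in Kir2.1 at P4 to 571 to 1830 CPM and 1150 to 1520 CPM at P8. The 9 rod markers went from 170 to 963 CPM in wild type and 363 to 580 CPM in Kir2.1 at P4 to 607 to 5710 CPM and 5110 to 5510 CPM at P8. The 10 amacrine markers summed to 2630 to 3230 CPM (wild type) and 2710 to 3040 CPM (Kir2.1) at P4, and to 1720 to 4260 CPM and 1400 to 2330 CPM at P8. The 5 horizontal cell markers went from 342 to 663 CPM and 324 to 375 CPM to 923 to 1580 CPM and 774 to 1020 CPM. Prox1 made up most of these sums, at 195 to 540 CPM at P4 and 691 to 1460 CPM at P8. Of the others, Onecut2 went from 70.8 to 111 CPM at P4 to 53.7 to 72 CPM at P8. Onecut1 went from 6.14 to 17.5 CPM to 3.82 to 11 CPM, and Lhx1 from 0.384 to 14.8 CPM to 0.325 to 11.9 CPM. Calb1 went from 1.23 to 15.5 CPM to 3.42 to 35.9 CPM. The 10 ganglion cell markers went from 992 to 1460 CPM in wild-type P4 to 395 to 486 CPM at P8, and in Kir2.1 from 260 to 756 CPM to 431 to 500 CPM. One of them, Isl1, which bipolar cells also carry, was at 163 to 303 CPM at P8. The other 9 went from 866 to 1390 CPM to 150 to 276 CPM in wild type and from 249 to 717 CPM to 162 to 220 CPM in Kir2.1. No marker of these lists was at 0 in every library, and Grm6 was at 0 in wild-type P4 replicate 1. The part of cell make-up in the changes of the 10 genes was not tested.

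The balance within a family can be read inside each library, as the ratio of its counts, free of library scaling. These ratios were chosen after the values were seen and restate the changes above, so they are described with no test. Dscaml1 over Dscam had a log2 ratio of -1.81 and -0.155 in wild-type P4 and of -1.09, -1.21 and -1.43 in Kir2.1 P4. By P8 the wild-type values were 1.56, 0.726 and 1.47, and those of Kir2.1 were 1.38, 1.09 and 1.37. Dscam thus had more counts than Dscaml1 in all 5 P4 libraries and fewer in all 6 P8 libraries. Averaged over the genotypes the ratio was higher by 2.38 on the log2 scale at P8, a 5.2-fold difference.

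The log2 ratio of Sdk1 over Sdk2 was -0.682 and 0.788 in wild-type P4 and -0.512, -0.22 and -0.397 in Kir2.1 P4. The P8 values were 2.61, 1.27 and 1.06 for wild type and 1.34, 0.612 and 1.85 for Kir2.1. Here wild-type P4 replicate 2 lay above Kir2.1 P8 replicate 2, and the ages did not overlap within a genotype. The ratio was higher by 1.62 at P8, and by 1.25 without wild-type P4 replicate 1.

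Cntn5 over Cntn2 was the steadiest of the 4 ratios. Its log2 value was -0.954 and -0.82 in wild-type P4 and -0.881, -0.904 and -1.11 in Kir2.1 P4, and the P8 values were -0.0601, 0.0575 and 0.0764 for wild type and -0.0204, 0.0274 and 0.229 for Kir2.1. The SD within a group was 0.074 to 0.132. Kir2.1 P4 replicate 2 had the lowest Cntn2 and the lowest Cntn5 of the P4 libraries, and its ratio lay among the others. Wild-type P4 replicate 2, which stood apart for Dscaml1 and Sdk1, was close to its partner here. The ratio was higher by 0.978 at P8, with a range of 0.941 to 1.01 when each library was left out in turn. Cdh8 over Cdh9 differed by 0.0909 between the ages.

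**Figure D3:**
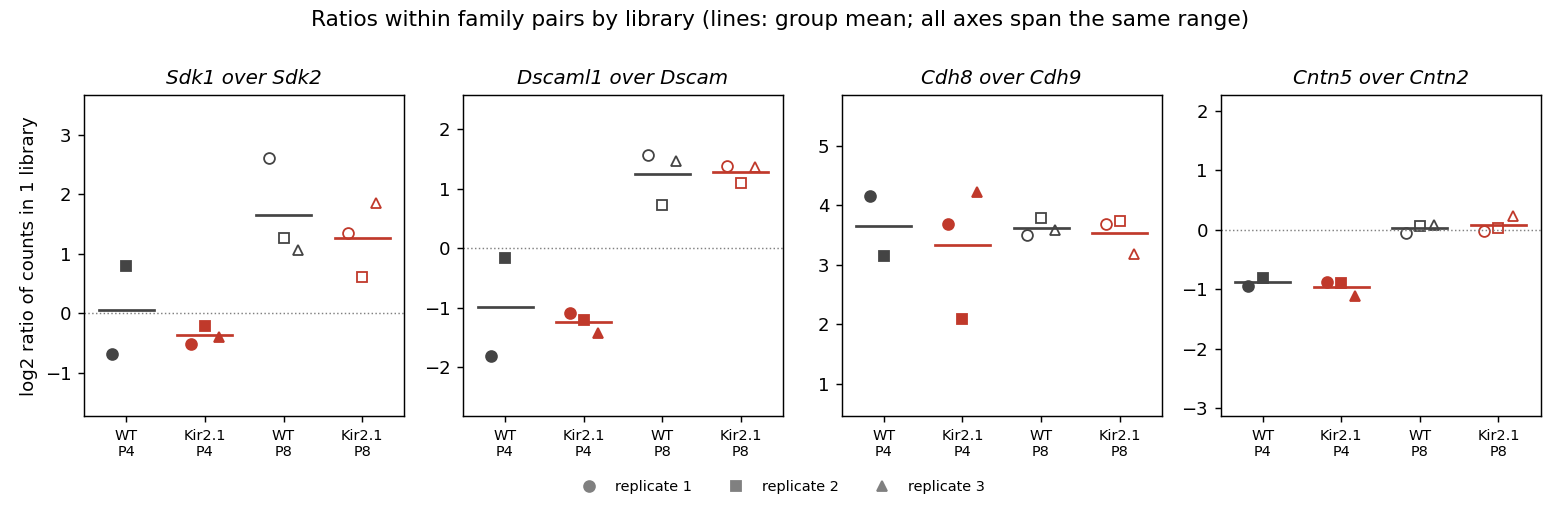
Log2 ratio of the counts of 2 genes of a family in each library, by genotype and age, with a line for the group mean and axes that span the same range. Cntn5 over Cntn2 groups tightly near -0.9 at P4 and near 0 at P8, while Sdk1 over Sdk2 and Dscaml1 over Dscam also move up but with wider spread.

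Levels can be compared between genes only per length, and here as CPM per kb of exon. In Kir2.1 P4 Dscam led at 26.5 ± 4.97 CPM per kb (SD, n = 3), above Dscaml1 at 11 ± 1.47 and the sidekicks, at 5.51 ± 0.227 for Sdk1 and 5.15 ± 0.686 for Sdk2, whose ranges overlapped. Cntn5, Cntn2, Cdh8 and Cdh6 followed between 2.93 and 2.15, each overlapping the next, and Cdh10 (0.62) and Cdh9 (0.546) were lowest and overlapped. In Kir2.1 P8 Dscaml1 led at 43.3 ± 9.25, above Dscam at 17.9 ± 2.81, which overlapped Sdk1 at 12 ± 4.25. Cdh8 had moved to the fourth place at 6.65 ± 1.05, above Sdk2 at 3.43 ± 0.316, and Cdh10 was last at 0.73 ± 0.0856. Wild type had the same first and last genes at P8, with Dscaml1 at 45.0 ± 6.98 and Cdh10 at 1.02 ± 0.132 (SD, n = 3), though Cdh10 overlapped Cdh9 there. In wild-type P4 Dscam (25.1 ± 3.05, SD, n = 2) overlapped Dscaml1 (15.3 ± 12.5).

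**Figure D4:**
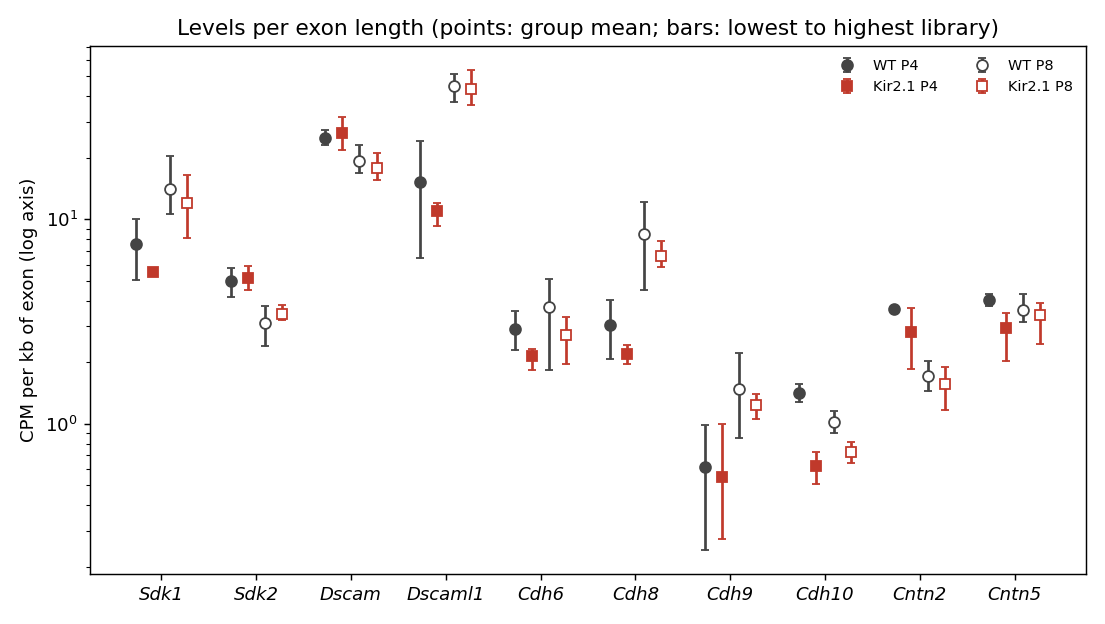
CPM per kb of exon on a log axis for each gene, with the group mean as a point and the lowest to highest library as a bar. Dscam is highest at P4 and Dscaml1 at P8, and Cdh9 and Cdh10 have the lowest means in each group, with Cdh9 overlapping Cntn2 at P8.

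The second question, from the design, was whether silencing by Kir2.1 goes with other levels of these genes. None of the 10 passed at P4 or at P8, and none of the 18188 genes did (0% in each comparison, edgeR). At an unadjusted p under 0.05 there was 1 member at each age, Cdh10 both times, beside 7.22% of all genes at P4 and 6.82% at P8. The log2 fold change was below 0 for 8 of 10 members at P4 and 9 of 10 at P8, against 48.7% and 49.4% of all genes. Their median log2 fold changes were -0.448 and -0.179, against 0.0106 and 0.00344 over all genes. These counts rested on single libraries: without wild-type P4 replicate 2, 5 of 10 were below 0 at P4 (median -8.5e-05), and without Kir2.1 P8 replicate 2, 6 of 10 at P8.

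Cdh10, a type II cadherin, was at 12.8 and 15.8 CPM in wild-type P4 and at 5.12, 6.22 and 7.35 CPM in Kir2.1 P4. Its P8 level was 9.07, 11.7 and 10.1 CPM for wild type, above the 7.45, 8.14 and 6.43 CPM for Kir2.1. The genotypes did not overlap at either age. Of the 10 genes, 2 had no overlap at P4 and 1 at P8, all lower in Kir2.1. Among all genes 26.7% had none at P4 (12.4% higher, 14.4% lower) and 10.6% at P8 (5.5% higher, 5.11% lower). The log2 fold change was -1.20 ± 0.24 at P4 (2.3-fold lower, 95% interval -1.73 to -0.67, edgeR adjusted p = 0.576). The P8 value was -0.49 ± 0.22 (edgeR adjusted p = 0.699). The P4 value stayed between -1.35 and -1.04 when each library was left out (edgeR adjusted p from 0.189 to 0.957). DESeq2 called it at P4 (adjusted p = 0.00694, with 0.225% of genes called), as did edgeR with no filter on low counts (adjusted p = 0.0341, 0.928% of genes), while voom did not (limma adjusted p = 0.4). In the authors' deposited table its log2 fold change at P4 was -1.05 with an adjusted p of 0.177.

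The 10 ganglion cell markers summed to 992 to 1460 CPM in wild type and 260 to 756 CPM in Kir2.1 at P4, so that they too did not overlap between genotypes, while at P8 the sums were 395 to 486 CPM and 431 to 500 CPM. Without Isl1 the sums were 866 to 1390 CPM and 249 to 717 CPM at P4, and 150 to 276 CPM and 162 to 220 CPM at P8. Whether this had a part in the Cdh10 values was not tested. Cntn5 was the other member without overlap at P4, at 17.1 and 19.6 CPM in wild type and 14.9, 9.21 and 15.7 CPM in Kir2.1 (log2 fold change -0.47 ± 0.27, edgeR adjusted p = 0.729). In the authors' deposited table its log2 fold change at P4 was -0.029 with an adjusted p of 0.996.

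For Sdk1, Dscaml1 and Cdh8 the P4 genotype values turned on wild-type P4 replicate 2. With all libraries their log2 fold changes were -0.45 ± 0.35, -0.48 ± 0.39 and -0.47 ± 0.36, and without that library they were 0.13, 0.77 and 0.09. The authors' deposited table called Sdk1 (-0.89, adjusted p = 7.33e-05) and Dscaml1 (-0.81, adjusted p = 0.00851) lower in Kir2.1 at P4, with 2.27% of its genes called. Without wild-type P4 replicate 1 instead, the edgeR values were -0.87 (adjusted p = 0.592) and -1.14 (adjusted p = 0.136). At P8 the authors' deposited table called Cdh6 lower (-0.81, adjusted p = 0.0296, with 7.27% of its genes called). The edgeR value for Cdh6 was -0.46 ± 0.33 (adjusted p = 0.737), and -0.79 (adjusted p = 0.0944) without wild-type P8 replicate 3. That library had the lowest wild-type Cdh6, at 16.5 CPM against 46 and 38.8 CPM.

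The 95% interval of the log2 fold change at P8 ran from -0.46 to 0.27 for Dscam, from -0.25 to 0.54 for Sdk2 and from -0.80 to 0.70 for Dscaml1. For the contactins it ran from -0.62 to 0.46 (Cntn5) and from -0.69 to 0.42 (Cntn2). It ran from -0.90 to 0.45 for Sdk1, from -1.17 to 0.25 for Cdh6 and from -1.03 to 0.32 for Cdh8. The interval of Cdh9 was the widest, from -1.47 to 0.93, and only that of Cdh10, from -0.97 to -0.0051, left out 0. An interaction term asked if the genotype difference itself changed with age, and 0 of the 10 passed (0% of all genes, and 0 of the 10 at an unadjusted p under 0.05, against 3.09% of all genes). Cdh10 came nearest, with a difference of 0.71 ± 0.33 (edgeR adjusted p = 1).

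Other genes of these families and their partners were read from a list of 38, all of which passed the filter. With age in Kir2.1, 3 rose, 15 fell and 20 did not pass, where 7.93% of all genes rose and 8.73% fell. The 3 were Nfasc (log2 fold change 1.27 ± 0.21, edgeR adjusted p = 0.00182), a neurofascin of axon initial segments, Cntnap1 (1.01 ± 0.24, edgeR adjusted p = 0.0125), a partner of contactins at myelinated axons, and Cntn4 (0.60 ± 0.16, edgeR adjusted p = 0.0254). The lowest were Cdh20 (-1.51 ± 0.29, edgeR adjusted p = 0.00451), Cntn3 (-1.36 ± 0.36, edgeR adjusted p = 0.0238), Cdh24 (-1.14 ± 0.21, edgeR adjusted p = 0.00365) and L1cam (-1.02 ± 0.23, edgeR adjusted p = 0.0109). By class, 4 of the 8 other type II cadherins and 3 of 5 type I and T-cadherins fell. So did 2 of 5 catenins, which link cadherins to actin, and 2 of 3 MAGI scaffolds, which bind sidekick and Dscam tails. None in these classes rose. Of the 11 contactins and contactin-associated proteins 2 rose and 1 fell, and of 4 L1-type proteins 1 rose and 2 fell. Of 2 receptor phosphatases that bind contactins 1 fell and 0 rose. In wild type 0 rose, 4 fell and 34 did not pass, where 0.803% of all genes rose and 3.58% fell. The 4 were Chl1 (-1.88 ± 0.37, edgeR adjusted p = 0.0128) and L1cam (-1.22 ± 0.25, edgeR adjusted p = 0.0155), axonal proteins of the L1 family, and Cdh4 (-1.0 ± 0.16, edgeR adjusted p = 0.0038) and Cdh11 (-0.72 ± 0.18, edgeR adjusted p = 0.038). All 38 together had a median log2 fold change of -0.457 in Kir2.1 and -0.255 in wild type, against 0.00464 and 0.0265 over all genes. Between genotypes 0 of the 38 passed at either age, with 7 at an unadjusted p under 0.05 at P4 and 4 at P8, where 7.22% and 6.82% of all genes were.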

How the data were processed

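For each library the authors deposited raw counts, as whole numbers, by Ensembl gene ID. Per the submitters' processing notes, STAR 2.5.0c, HTSeq 0.6.1, cutadapt 1.18, SAMtools 1.9, bedtools 2.26.0, DESeq2 and build mm10 were used; the annotation is not given in the sources used here. Last lines that name no gene held 74.6% to 79.8% of the summed entries and were left out. They include a line named as a sum, so this share may count records more than once. Of the records that fell in a gene, in no gene or were ambiguous, 57% to 69.4% fell in no gene. The highest share was in Kir2.1 P8 replicate 2. The authors' deposited comparison tables, per the file headers, hold log2 fold changes and standard errors, their quotient (a score), p-values and a mean count as a signal scaled by the authors.

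Counts were fitted with edgeR 4.0.16 in R 4.3.3: filterByExpr (18188 of 47069 genes), TMM factors (0.964 to 1.05), 4 group means over all 11 libraries (quasi-likelihood, 7 residual degrees of freedom), and Benjamini-Hochberg adjustment over all genes with a threshold of 0.05. Unless DESeq2 (1.42.0) or limma (3.58.1) is named, an adjusted p is from edgeR. CPM are TMM-scaled. The fit was checked on simulated data. Depth limits low genes most: Cdh9 had 10 to 96 counts.

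Groups came from the sample titles. The genes and lists were chosen with earlier results of these data known. The naming rule took all 10 genes, called genes of the 38 partners (4 highest and 4 lowest) and the 3 genes most like each member, 1 of which is not reported here. Ensembl IDs were matched to symbols by table, and 581 had no symbol. No 2 libraries of 1 group agreed within sampling noise.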

Additional observations from a re-analysis of the deposited data

How the results depend on the processing

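Of 290 member values under other settings, 272 kept their direction and side of the threshold, 8 lost the call, 8 gained it and 2 changed sign. The 2 were Sdk1 (0.011) and Dscaml1 (0.11) between genotypes at P8 under voom with sample quality weights. With no filter on low counts, 1 member was called between genotypes at P4 and 5 with age in wild type (5.63% of genes there), and 339 (P4), 447 (P8), 136 (interaction) and 2058 (wild-type age) genes in all. DESeq2 called 1 member at P4 and 4 with age in wild type, and 33, 3 and 1580 genes at P4, at P8 and with age in wild type. The fit to wild-type libraries alone called 0 members and 113 genes with age. The main counts were 0, 0, 0 and 2 members and 0, 0, 0 and 798 genes. The cause of these shifts was not tested.

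The replicate numbers did not pair the libraries. Of 15 same-numbered pairs, 3 had a correlation of deviations over 0.1 (range -0.0757 to 0.139). With the replicate block, 0 members passed with age in wild type (3.07% of genes) and 3 in Kir2.1 (16.1%), against 2 and 6 without it. Lost were Cdh8 (adjusted p = 0.0614) and Cntn2 (0.0715) in wild type, and Sdk1 (0.0571), Sdk2 (0.0686) and Cntn2 (0.0524) in Kir2.1, all edgeR.

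Leaving out each library in turn gave 0 to 3 members and 163 to 1339 genes with age in wild type, 2 to 4 members and 1764 to 2169 genes in Kir2.1, and 0 to 6, 0 to 219 and 0 to 1 genes between genotypes at P4, at P8 and for the interaction. The Sdk1 over Sdk2 change ran from 1.25 to 1.99 and that of Cdh8 over Cdh9 from -0.218 to 0.343. Signs changed for genotype values at P4 of Sdk1 (-0.87 to 0.13), Sdk2 (-0.17 to 0.30), Dscam (-0.070 to 0.21), Dscaml1 (-1.14 to 0.77), Cdh8 (-0.87 to 0.093) and Cdh9 (-0.92 to 1.2). At P8 they changed for Sdk1 (-0.52 to 0.15), Sdk2 (-0.019 to 0.31), Dscam (-0.22 to 0.057), Dscaml1 (-0.24 to 0.060), Cdh9 (-0.55 to 0.13), Cntn2 (-0.30 to 0.033) and Cntn5 (-0.19 to 0.11). For the interaction they changed for Sdk1 (-0.35 to 0.64), Sdk2 (-0.17 to 0.31), Dscaml1 (-0.83 to 1.09), Cdh6 (-0.37 to 0.27), Cdh8 (-0.45 to 0.51), Cdh9 (-1.45 to 0.65) and Cntn2 (-0.00048 to 0.47). With age no member changed sign in a fit without 1 library.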

Other observations

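Over the 11 libraries, the genes whose log2 CPM was most like that of a member (Pearson r, among genes with a mean of at least 5 CPM) are given as a description. The libraries share 2 ages, so a gene that differs with age scores high with any other that does. For Sdk1 they were Rps6ka2 (r = 0.99), Pik3r2 (0.987) and Shisa6 (0.981), and for Sdk2 Hs3st4 (0.981), Prr11 (0.97) and Tpst2 (0.967). For Dscaml1 they were Epha7 (0.986), an ephrin receptor, Cplx3 (0.984), a complexin of ribbon and amacrine synapses, and Tnk2 (0.983). For Dscam they were Adarb2 (0.93), Gm42969 (0.928) and Pcdh9 (0.927). For Cdh8, Zfp804b (0.98) and Slitrk6 (0.978) are given. Cdh6 was closest to Slc35e2 (0.985), Spock3 (0.982) and Fam163a (0.975). Cntn2 was closest to Ablim3 (0.966), Gng4 (0.966) and Pou4f1 (0.964), a transcription factor of ganglion cells that was also in the marker list, and Cntn5 to Spock2 (0.918), Map1lc3a (0.907) and Ttc13 (0.895). Cdh9 was closest to Aamdc (0.967), 2900064K03Rik (0.945) and Idh3b (0.937). Cdh10 had the weakest first match, Atp5e (0.901), before Ufsp1 (0.889) and Tpgs2 (0.861).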
